A study of Mus with 12 samples.

Results

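The loci described here are stretches of the mouse genome that the study assembled from uterine RNA reads, that hold no Ensembl transcript, and that lie outside the protein-coding rows of the study's table. They were taken from the gene table of the implantation stage as the rows without an Ensembl transcript identifier whose span overlaps no protein-coding row on either strand. There were 11198 such intergenic loci among 87235 rows (12.8%), and a further 22879 rows without an Ensembl transcript lay within or across coding genes. The RNA came from the whole uterus of mated adult females of ICR, an outbred stock of mice. The comparison was between 3 mice at day 0.5 of pregnancy (E0.5) and 3 other mice at day 4.5 (E4.5), with no treatment or genetic change in either group. The study also sequenced 3 mice at E15.5 and 3 at E18.5, whose table comes from a separate assembly, and those libraries were not analysed here.

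Transcription between genes has several known sources. Long noncoding RNAs (lncRNAs), transcripts from enhancers, extended ends of coding genes and copies of repeated elements all leave assembled loci of this kind, and a gene table alone does not tell them apart. At E0.5 the mouse uterus is under the estrogen of ovulation, and at E4.5 it is under progesterone from the corpus luteum while embryos implant. The comparison therefore asks which unannotated loci differ in level between these hormonal states.

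The 6 libraries held between 58020989 and 70906881 counts in all rows. Uterine smooth muscle genes (Myh11, Des, Acta2, Actg2, Cnn1 and Tagln, 6 of 6 at 1 FPKM or more on average) summed to between 809 and 1125 FPKM at E0.5 and between 201 and 1192 FPKM at E4.5. The library E4.5 replicate 3 stood apart from the other libraries. Ovary genes (9 of 10 listed genes had a row) summed to between 4.19 and 6.40 FPKM at E0.5 and to 4.72, 5.59 and 997 FPKM in E4.5 replicates 1, 2 and 3, and the oocyte and granulosa cell genes Zp3, Oosp1 and Fshr were at 0 in every library but that one. Fat cell genes (5 of 5 with a row) summed to 62.0 FPKM in E0.5 replicate 1, against 21.2 to 23.4 FPKM in the other E0.5 libraries and 4.10 to 29.8 FPKM at E4.5. Epithelial genes summed to 164 to 205 FPKM at E0.5 against 58.1 to 136 FPKM at E4.5, and oviduct genes (3 of 4 with a row) summed to 6.51, 1.71 and 1.05 FPKM at E0.5 against 0.151, 0.381 and 19.1 FPKM at E4.5. Endometrial stroma genes (4 of 5 with a row) summed to 20.1 to 34.3 FPKM at E0.5 against 8.91 to 82.5 FPKM at E4.5, with the lowest sum in E4.5 replicate 3. Erythroid genes (3 of 5 with a row) summed to 76.5 to 222 FPKM at E0.5 against 49.2 to 568 FPKM at E4.5, with the highest sum in that same library, and no gene on the lists for neutrophils, sperm and trophoblast averaged 1 FPKM. Their part in the results was not tested, and results that rest on E4.5 replicate 3 are given with and without it. In bulk RNA, fewer cells of a type and less RNA per cell cannot be told apart.

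Most of the intergenic loci were short and of low level. The median span was 402 bases (quartiles 261 and 906, range 200 to 493428), 6581 loci were under 500 bases and 551 spanned at least 5000 bases. A single transcript made up 11109 loci, and 9776 had no assigned strand. The mean level over the 6 libraries had a median of 0.938 FPKM (quartiles 0.632 and 1.33), close to the 0.742 FPKM median of all rows. There were 5072 loci with a mean of at least 1 FPKM and 91 with at least 10 FPKM. A count in all 6 libraries was found for 7032 of the 11177 loci that passed the filter of 0.1 FPKM, and 998 of those 11177 averaged fewer than 10 counts per library. Counts were concentrated in few loci, with 42.8% of them in the loci of at least 5000 bases and 35.8% in the 100 most counted loci.

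Not all of the loci are unknown to every annotation. An annotated noncoding row of the same table was overlapped by 1620 loci (14.5%), and 3277 (29.3%) overlapped a gene of RefSeq on GRCm38, among them 1972 with a RefSeq lncRNA, 315 with a pseudogene and 1100 with a RefSeq coding gene. Neither kind of overlap was found for 7473 loci (66.7%). A gene name was carried by 4306 loci, and 2757 of these overlapped no annotated noncoding row. Some loci also overlapped each other, with 403 loci in 115 clusters, and how reads were assigned within such clusters is not given in the sources used here.

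The loci lay mostly near coding genes. The gap to the nearest protein-coding row had a median of 7694.5 bases (quartiles 1814 and 43443.5 bases), 42.1% of the loci were within 5 kb and 1748 (15.6%) were more than 100 kb away, up to 2212964 bases. Within 5 kb of a gene, 3365 loci were past its 3′ end and 1347 were before its 5′ end. Beyond 100 kb the sides were closer to even, with 827 downstream and 921 upstream. Of the 262 stranded loci within 1 kb past the 3′ end of a gene, 209 (79.8%) ran on the strand of that gene, whereas from 5 to 20 kb downstream 65 of 129 (50.4%) did. Within 1 kb before a 5′ end, 94 of 143 (65.7%) shared the strand of the gene, and in the other windows of distance the share lay between 41.7% and 58.5%.

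The loci were spread over all nuclear chromosomes, and the mitochondrial genome held none. Per 100 protein-coding rows there were 34.4 intergenic loci on chromosome 7, the lowest of the autosomes, and 92.2 on chromosome 12, the highest. Of the 562 tested loci of chromosome 12, 70 (12.5%) met the criterion described below as higher at E0.5 and 9 (1.6%) as lower, beside 9.47% and 4.46% of all intergenic loci and 6.37% and 5.82% of all rows tested. Chromosome Y held 64 loci, although the tissue is from females. They took between 14197 and 34200 counts per library, 0.914% to 1.96% of the counts of all intergenic loci. The Y-linked genes Ddx3y, Uty, Eif2s3y and Kdm5d, which male tissue expresses broadly, stood at 0.0101 FPKM or less in every library. The most counted Y locus, MSTRG.2044 (95243 bases, chromosome Y from 90717572 to 90812814, minus strand, over the predicted genes Gm21860 and Gm47283), held 37.4% of those counts, with 9680, 2811 and 13218 counts at E0.5 against 8561, 10358 and 5439 at E4.5. The groups overlapped in that locus (log2 fold change of E0.5 over E4.5, log2FC, 0.04, adjusted p = 0.974). Of the 63 tested Y loci, 11 (17.5%) met the criterion as higher at E0.5 and 4 (6.35%) as lower. MSTRG.2035 had 5479, 19704 and 5275 counts at E0.5 against 1258, 3285 and 1067 at E4.5 (log2FC 2.55, adjusted p = 0.156), and MSTRG.2034 on the other strand of the same place had 29, 4849 and 0 counts at E0.5 and none at E4.5, so that it rested on E0.5 replicate 2.

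The locus with the highest level was MSTRG.3491 on chromosome 1 (minus strand, 72236957 to 72255261), 3.91 kb downstream of Pecr, a peroxisomal enzyme of fatty acid metabolism. Its values were 1303, 1573 and 2475 FPKM at E0.5 against 1799, 1769.5 and 1153 FPKM at E4.5. The groups overlapped, and the log2FC was 0.18 (standard error, SE, 0.32, adjusted p = 0.805). Its span of 18305 bases covers the predicted genes Gm23472, Gm24497, Gm25939 and D230017M19Rik, and it also had the most counts of all the loci (42817 to 98647 per library). Its counts and FPKM together imply a counted length of 564 bases, far less than the span. For comparison, among the 1887 loci with at least 50 counts in every library this implied length was 123% of the span at the median, and it was under 50% of the span in 82 of them (4.35%). A length above the span cannot be a real one, so implied lengths are approximate and run high.

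Of the next 7 loci by level, 6 were above the E4.5 range in every E0.5 library. The groups did not overlap, in either direction, in 21.4% of all intergenic loci and 25.2% of all rows tested. Several of the 6 overlap each other, near F5 and near Usp10, so they are not separate places. MSTRG.14534 (minus strand of chromosome 12, from 51490575 to 51491026, 48.0 kb downstream of Scfd1, a vesicle fusion factor) had 312, 457 and 319 FPKM at E0.5 against 23.4, 26.1 and 24.5 FPKM at E4.5. The libraries of the days were far apart, with a log2FC of 3.89 (SE 0.22, adjusted p = 0.00508). Scfd1 itself had 2.62 to 3.03 FPKM at E0.5 against 3.64 to 4.09 FPKM at E4.5. The locus is 1 of 6 overlapping intergenic loci, so its level depends on how reads were assigned among them.

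Close to the 3′ end of F5, the gene of coagulation factor V, 3 overlapping loci of chromosome 1 were among the 8 of highest level. MSTRG.5428 (1105 bases, plus strand, from 164224260 to 164225364, 0.891 kb past F5) had 388, 258 and 249 FPKM at E0.5 against 89.9, 74.5 and 16.3 FPKM at E4.5. Around it, MSTRG.5426 on the plus strand had 9458, 5766 and 6022 counts at E0.5 against 1782, 1634 and 28 counts at E4.5, and MSTRG.5427 on the minus strand had 163, 84.6 and 150 FPKM at E0.5 against 54.9, 34.7 and 0 FPKM at E4.5. All 3 loci were above the E4.5 range in every E0.5 library and lowest in E4.5 replicate 3. None passed the adjusted p with all 6 libraries (log2FC values 2.29, 2.62 and 2.12, adjusted p = 0.134, 0.316 and 0.557), whereas without E4.5 replicate 3 the log2FC values were 1.83, 2.05 and 1.54 (adjusted p = 0.00952, 0.0057 and 0.0505). F5 had 8.79, 5.83 and 7.26 FPKM at E0.5 against 5.30, 4.81 and 0.834 FPKM at E4.5.

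A pair of overlapping loci on chromosome 8, 13.8 and 15.8 kb upstream of the row that merges Usp10, a deubiquitinase, with Galnt2l and Galnt2, had the same order. MSTRG.58701 (plus strand, from 119890398 to 119896512) had 82.9, 107 and 108 FPKM at E0.5 against 44.6, 55.4 and 5.39 FPKM at E4.5. MSTRG.58702 had 162, 140 and 189 FPKM at E0.5 against 70.5, 81.3 and 12.4 FPKM at E4.5. Both were above the E4.5 range in every E0.5 library, and their log2FC values of 1.49 and 1.57 (adjusted p = 0.352 and 0.275) became 0.98 and 1.10 (adjusted p = 0.03 and 0.0174) without E4.5 replicate 3. The sixth locus by level, MSTRG.18038 on chromosome 13, overlaps the noncoding gene 9330111N05Rik and had 47.7, 130 and 104 FPKM at E0.5 against 79.5, 27.1 and 21.2 FPKM at E4.5, which overlap.

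Of the loci with most counts, MSTRG.21596 was the clearest difference between the days. It spans 5908 bases on chromosome 15 (plus strand, 6679807 to 6685714), 14.1 kb downstream of Fyb, an adaptor protein of immune cells, and overlaps no RefSeq gene. It had 39997, 33789 and 29109 counts at E0.5 against 2317, 3035 and 2337 counts at E4.5. The log2FC was 3.77 (SE 0.23, adjusted p = 0.00565) and ranged from 3.69 to 3.90 when single libraries were left out. The row of Fyb, which is merged with Gm7666, had 2.11 to 2.94 FPKM at E0.5 against 1.86 to 3.998 FPKM at E4.5, which overlap (log2FC -0.05, SE 0.31). MSTRG.43104 (plus strand of chromosome 4, from 133095958 to 133101625, 18.1 kb downstream of Ahdc1, a DNA-binding protein) had 34330, 25885 and 27949 counts at E0.5 against 10405, 11462 and 5755 at E4.5. Its log2FC of 1.69 had an adjusted p of 0.0529, and without E4.5 replicate 3 it was 1.43 (adjusted p = 0.0049). MSTRG.50453, which overlaps the lncRNA gene 9530026P05Rik upstream of Adamts9, a protease of the extracellular matrix, had 15314 to 19738 counts at E0.5 against 14617 to 23067 at E4.5 and a log2FC of -0.02 (SE 0.22).

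The 3 loci of longest span, MSTRG.13734, MSTRG.13723 and MSTRG.14038, cover 464259 to 493428 bases each on chromosome 12, over predicted genes such as Gm20472 and Gm9269. They had few counts for such spans, from 5 to 239 per library, and implied counted lengths of 661, 370 and 2708 bases in that order. These lengths are approximate, and that of 370 bases rests on 1 library. MSTRG.13723 had 87, 29 and 26 counts at E0.5 against 5, 7 and 8 at E4.5, and its log2FC of 2.80 did not pass the adjusted p (0.139). Of the other two, MSTRG.13734 lies in the same cluster of 61 overlapping loci and MSTRG.14038 in a cluster of 18.

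Intergenic loci took a larger share of the counts at E0.5 than at E4.5. Their share was 2.84%, 3.00% and 2.93% of the library at E0.5 against 2.02%, 2.41% and 2.36% at E4.5. The groups did not overlap, with means of 2.92% ± 0.0824 and 2.26% ± 0.211 (SD, n = 3) and a difference of 0.658 percentage points (exact permutation test, two-sided, p = 0.1, the smallest that 3 against 3 can give). The difference remained at 0.450 points without the 10 most counted loci and at 0.464 points for loci at least 5 kb from a coding gene, in both cases with p = 0.1 in the same exact test with n = 3. The Wilson 95% interval of a library's share was narrow, from 2.83% to 2.84% in E0.5 replicate 1, and covers counting error only. Both long and short loci had this order, with 1.26% ± 0.109 against 0.957% ± 0.0788 for spans of at least 5000 bases and 0.321% ± 0.0240 against 0.222% ± 0.0260 for spans under 500 bases. Unannotated loci inside coding genes held 14.9% ± 0.740 and 14.6% ± 0.567 of the counts, and the groups overlapped (exact permutation test, p = 0.6). Protein-coding rows held 67.9% ± 2.26 and 68.8% ± 3.21 (exact permutation test, p = 0.8).

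**Figure D1:**
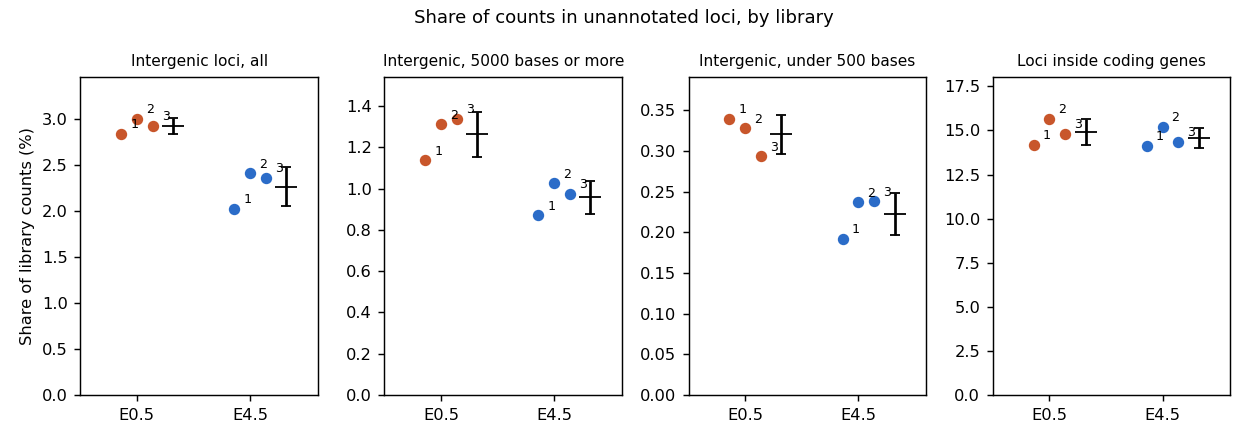
Share of library counts (percent) in all intergenic loci, in those of at least 5000 bases, in those under 500 bases and in unannotated loci inside coding genes, for the 3 E0.5 and 3 E4.5 libraries (points, numbered by replicate; the bar is the mean with its SD). The intergenic share lies between 2.84% and 3.00% at E0.5 and between 2.02% and 2.41% at E4.5, and the groups overlap only for the loci inside coding genes.

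The number of intergenic loci with a count differed less, with 9815, 9661 and 9653 loci at E0.5 against 9287, 9406 and 9743 at E4.5 (exact permutation test, p = 0.3). E4.5 replicate 3 had more loci with a count than the other E4.5 libraries, and 252 loci had counts in that library alone, against 14 to 94 in each of the other libraries. Over the 5072 loci of at least 1 FPKM, Spearman's correlation of the levels was 0.775 to 0.794 between E0.5 libraries and 0.814 between E4.5 replicates 1 and 2, and 0.670 and 0.683 between E4.5 replicate 3 and those. Over 11682 protein-coding rows of that level the same values were 0.953 to 0.964, 0.963, and 0.833 and 0.836. These correlations are across loci, which share their libraries, and the intergenic loci have fewer counts each.

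By the study's criterion, a change of 1 or more on the log2 scale in either direction at an unadjusted p below 0.05, 1558 of 11177 tested intergenic loci differed between the days (13.9%), beside 12.2% of all 59732 rows tested. Of these, 1059 were higher at E0.5 (9.47%, beside 6.37% of all rows) and 499 were lower (4.46%, beside 5.82%). Higher loci were thus 68.0% of the calls. At an adjusted p under 0.05 there were 94 loci, 84 higher and 10 lower at E0.5, which is 0.841% beside 1.2% of all rows (0.755% higher and 0.449% lower). That stricter count depended on the tool and the libraries. It was 965 with DESeq2 and 146 with limma on log2(FPKM + 0.1). With edgeR and without E4.5 replicate 3 it was 433 (290 higher, 143 lower), including all 94, while it was 6, 0 and 14 without E0.5 replicates 1, 2 and 3 and 9 and 26 without E4.5 replicates 1 and 2. With edgeR and without E0.5 replicate 2, 1303 loci still had an unadjusted p under 0.05, and the smallest adjusted p was 0.0554. The count by the study's criterion ranged from 1202 to 1722 over the same 6 fits, with more loci higher than lower at E0.5 in each.

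The middle of the distribution of intergenic loci lay towards E0.5. Their median log2FC was 0.42 (quartiles -0.49 and 1.44) beside -0.01 over all rows tested, and 62.9% were above 0 beside 49.6% of all rows. The median was 0.05 for unannotated loci inside coding genes, -0.02 for annotated lncRNA rows and -0.16 for protein-coding rows. The intergenic median was 0.51 without E4.5 replicate 3 and 0.20 without E0.5 replicate 1, the library with the highest fat cell sum and the highest oviduct sum of its group. In 21.4% of the intergenic loci the groups did not overlap in CPM (counts scaled to equal library totals), beside 25.2% of all rows. Of those 2391 loci, 1781 were higher and 610 lower at E0.5. There were 885 loci with no count on 1 of the days, whose fitted change depends on the prior count. With these set at a bound from the floor of 3 counts over the group the median was again 0.42. Since the bound mainly shrinks such changes and keeps their direction, the median could hardly move and is no test of the prior count. The loci are not independent of each other, and no test was made of the distribution.

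**Figure D2:**
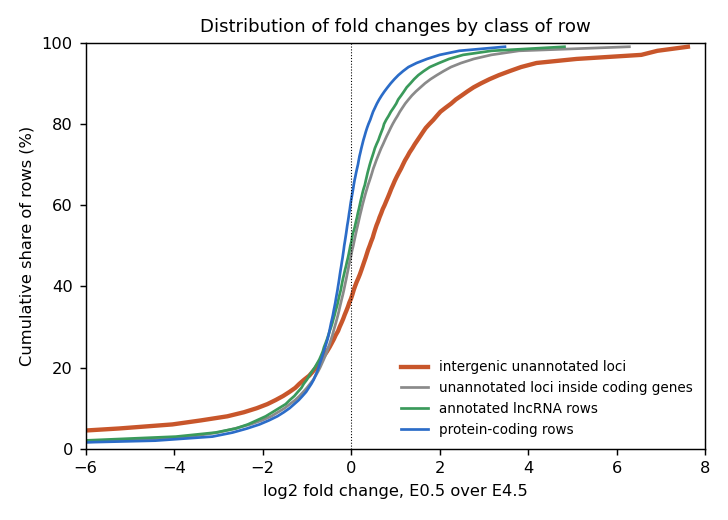
Cumulative share of tested rows (percent) against the log2 fold change of E0.5 over E4.5, for intergenic unannotated loci, unannotated loci inside coding genes, annotated lncRNA rows and protein-coding rows. The curve of the intergenic loci lies to the right of the others at its middle, with a median of 0.42 against 0.05, -0.02 and -0.16 for the other classes.

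The shift was larger in short loci than in those of 1000 to 20000 bases. Spans of up to 300 bases (3901 loci) had a median log2FC of 0.81, longer spans of up to 500 bases 0.45, of up to 1000 bases 0.34, of up to 5000 bases 0.08 and of up to 20000 bases -0.06. Above that length the 128 loci had a median of 0.77. The share of calls ran the other way, with 5.72% higher and 2.77% lower at E0.5 in the shortest loci and 14.2% and 12.3% in those of 5000 to 20000 bases. By level, the median was 1.76 from 0.1 to 0.5 FPKM, 0.78 from 0.5 to 1 FPKM, 0.22 from 1 to 2 FPKM and 0.06 from 2 to 10 FPKM. The 91 loci of at least 10 FPKM had 33 higher and 1 lower, and a median of 1.21. Loci without a strand had a median of 0.45, and stranded loci 0.21 and 0.23 on the plus and minus strands. The 1096 tested loci that overlap a RefSeq coding gene had 87 higher and 65 lower with a median of 0.18, and the other 10081 had 972 and 434 with a median of 0.45.

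The 8 loci named in each direction were picked by the size of the fitted log2FC among the 67 loci whose mean reached 1 FPKM, whose adjusted p was below 0.05 and whose groups do not overlap (58 higher and 9 lower at E0.5). They lay from 0.157 to 319 kb from a coding gene. All 16 passed the adjusted p without E4.5 replicate 3, but 1, 0 and 1 did without E0.5 replicates 1, 2 and 3 and 3 and 4 without E4.5 replicates 1 and 2.

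A pair of these loci had counts at E0.5 only. MSTRG.15997 is a 377-base locus of chromosome 12, from 115728225 to 115728601, inside the immunoglobulin heavy chain locus Igh, which RefSeq annotates and which encodes antibody chains of B cells. It had 88, 96 and 72 counts at E0.5 and no count at E4.5, so that E0.5 was at least 87.8-fold higher, against a floor of 3 counts over the E4.5 libraries (adjusted p = 0.0337). Without E4.5 replicate 1 the bound was 57.9-fold, since the floor is then spread over fewer libraries. MSTRG.33156 is a 396-base locus of chromosome 2, from 32382273 to 32382668, which carries the name of Ciz1, a DNA replication factor, and lies 0.335 kb upstream of 1110008P14Rik. It had 98, 91 and 51 counts at E0.5 and none at E4.5, at least 82.4-fold higher on the same floor (adjusted p = 0.0406) and at least 54.3-fold without E4.5 replicate 1. The gene 1110008P14Rik met the study's criterion as higher at E0.5 too, with 2.50 to 3.23 FPKM at E0.5 against 0.967 to 1.97 FPKM at E4.5 (log2FC 1.11, adjusted p = 0.138).

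A further 3 of the higher loci lay beside genes that likewise met the study's criterion as higher. Of these loci, MSTRG.43421 and MSTRG.24946 carry the name of the neighbouring gene. MSTRG.43421 (2804 bases, plus strand of chromosome 4, from 138883348 to 138886151) starts 0.531 kb past the end of Pla2g2e, a secreted phospholipase. It had 1124, 882 and 1047 counts at E0.5 against 4, 0 and 13 at E4.5, a log2FC of 7.48 (SE 0.99, adjusted p = 0.0291). Pla2g2e itself had 24.9, 27.5 and 14.5 FPKM at E0.5 against 0, 0 and 0.192 FPKM at E4.5. MSTRG.24946 (4238 bases, minus strand of chromosome 16, from 56719712 to 56723949) lies 0.198 kb past Adgrg7, an adhesion receptor, with 1977, 1096 and 1370 counts against 19, 45 and 130 and a log2FC of 4.53 (SE 0.71, adjusted p = 0.0436). Adgrg7 had 20.6 to 26.0 FPKM and 0.185 to 2.26 FPKM. MSTRG.39911 (549 bases, chromosome 3, from 145049281 to 145049829) lies 16.5 kb upstream of Clca1, a secreted protein of mucous epithelium, and had 92, 125 and 44 counts against 1, 4 and 3. Its log2FC was 5.03 (SE 0.81, adjusted p = 0.0447), and Clca1 had 178 to 516 FPKM at E0.5 against 0.0404 to 0.918 FPKM at E4.5.

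The other 3 higher loci had no such neighbour. MSTRG.4 spans 4770 bases on chromosome X (plus strand, 5366309 to 5371078), 95.8 kb from Mycs, which was at 0 in all libraries. It had 20.6, 17.5 and 12.1 FPKM at E0.5 against 0.568, 0.772 and 0.729 FPKM at E4.5 (log2FC 4.61, SE 0.26, adjusted p = 0.00508), and it passed the adjusted p in 5 of the 6 fits that left out a library. MSTRG.23926 (331 bases, chromosome 16, from 15457591 to 15457921) had 263, 156 and 68 counts at E0.5 against 6, 9 and 13 at E4.5, while its nearest coding gene Ube2v2, a ubiquitin-conjugating enzyme variant 94.2 kb away, had a log2FC of -1.10 (adjusted p = 0.296). MSTRG.14529 overlaps MSTRG.14534 near Scfd1 and had 527, 805 and 514 counts at E0.5 against 15, 51 and 50 at E4.5.

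**Figure D3:**
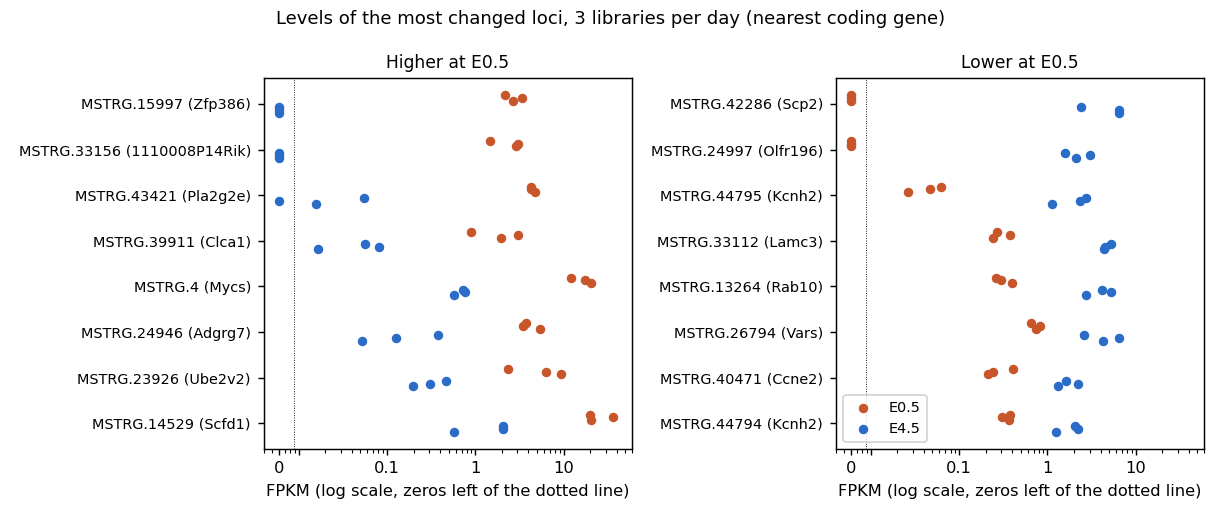
Level in FPKM (log scale, with zeros set left of the dotted line) of the 8 loci with the largest fitted change in each direction, with the nearest coding gene in parentheses and 1 point per library (orange E0.5, blue E4.5, 3 each). The groups are apart in all 16 loci, and MSTRG.15997, MSTRG.33156, MSTRG.42286 and MSTRG.24997 are at 0 in every library of 1 day.

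Of the 8 loci lower at E0.5, a pair had no count at that day. MSTRG.42286 (1070 bases, chromosome 4, from 108150499 to 108151568, 5.50 kb upstream of Scp2, a lipid transfer protein) had 582, 569 and 209 counts at E4.5 and none at E0.5, which is at least 446-fold lower than at E4.5 against a floor of 3 counts over the E0.5 libraries (adjusted p = 0.0249). Without E0.5 replicates 1 and 3 in turn the bound was 289-fold and 287-fold. Scp2 had 5.49 to 6.18 FPKM at E0.5 against 4.01 to 11.7 FPKM at E4.5. MSTRG.24997 (341 bases, chromosome 16, from 59172716 to 59173056) lies 2.26 kb from the odorant receptor gene Olfr196, which was at 0 in all libraries, and had 62, 84 and 44 counts at E4.5 and none at E0.5, which is at least 62.5-fold lower on the same floor (adjusted p = 0.0477), and at least 40.5-fold and 40.3-fold lower without E0.5 replicates 1 and 3 in turn.

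A neighbouring pair on the minus strand of chromosome 5, 33.2 and 49.8 kb downstream of the potassium channel gene Kcnh2, was lower at E0.5. MSTRG.44795 (13611 bases, from 24272801 to 24286411) had 31, 48 and 75 counts at E0.5 against 1321, 2587 and 3023 at E4.5, a log2FC of -5.46 (SE 0.49, adjusted p = 0.0136). MSTRG.44794 (7167 bases, from 24262604 to 24269770) had 0.372, 0.308 and 0.379 FPKM at E0.5 against 1.26, 2.24 and 2.08 FPKM at E4.5, a log2FC of -2.37 (SE 0.27, adjusted p = 0.0217). The change of the first was thus the larger on the log2 scale. Kcnh2 had 4.71 to 6.68 FPKM at E0.5 against 3.96 to 5.96 FPKM at E4.5, with a log2FC of 0.27 (SE 0.25).

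Beside genes that were lower at E0.5 themselves lay MSTRG.33112 and MSTRG.40471. MSTRG.33112 (2252 bases, plus strand of chromosome 2, from 31946964 to 31949215) starts 0.425 kb past the row of Lamc3, a laminin chain of basement membranes. The locus carries the name of Lamc3 and overlaps the longer RefSeq model of that gene. It had 0.243, 0.373 and 0.272 FPKM at E0.5 against 4.32, 4.49 and 5.22 FPKM at E4.5. Its log2FC of -3.95 (SE 0.28, adjusted p = 0.00749) stood beside -3.58 (SE 0.18) for Lamc3, which had 0.561 to 0.695 FPKM and 7.02 to 8.44 FPKM. MSTRG.40471 (5000 bases, chromosome 4, from 11185637 to 11190636) lies 0.715 kb upstream of Ccne2, a cyclin of entry into DNA synthesis, over the noncoding gene A630034I12Rik and the RefSeq model of Ccne2. It had 91, 91 and 180 counts at E0.5 against 561, 910 and 651 at E4.5 (log2FC -2.54, adjusted p = 0.0345), and Ccne2 had a log2FC of -1.64 (adjusted p = 0.0351).

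The last 2 of the 8 lower loci differed in setting. MSTRG.26794 (5066 bases, minus strand of chromosome 17, from 34995765 to 35000830, 0.157 kb upstream of Vars, a valyl-tRNA synthetase, over the RefSeq gene D17H6S56E-5) had 241, 234 and 219 counts at E0.5 against 1389, 2001 and 817 at E4.5, a log2FC of -2.57 (SE 0.36). MSTRG.13264 is a 246-base locus of chromosome 12, from 3109872 to 3110117, 137 kb from Rab10, a vesicle transport GTPase, with 9, 6 and 6 counts at E0.5 against 58, 107 and 84 at E4.5 and a log2FC of -3.52 (SE 0.55). Neither Vars nor Rab10 passed the adjusted p (0.289 and 0.494).

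Some genes that estrogen or progesterone is known to induce in the uterus had intergenic loci around them. Within 100 kb and with the listed gene as the nearest coding gene, 33 tested loci lay near 10 rows of the 20 estrogen-induced genes, of which 7 (21.2%) were higher and 0 lower at E0.5, beside 9.47% and 4.46% of all intergenic loci. Without E0.5 replicate 3, and likewise without E4.5 replicate 3, 3 of the 33 were lower. Their median log2FC was -0.23, beside 0.42 for all intergenic loci and -0.01 for all rows. The 7 loci lay near the Sprr2a genes (4 of 4), C3, Lcn2 and Ltf, while none of the 14 loci near Pgr, the progesterone receptor, or of the 7 near Wnt7b met the criterion. Near 5 of the 14 progesterone-induced genes there were 23 tested loci, 0 higher and 6 lower (26.1%), with a median of -1.08. That count of 6 depended on the libraries, with 12 lower without E4.5 replicate 3, 2 without E0.5 replicate 1 and 3 without E0.5 replicate 3 or E4.5 replicate 1. These 6 were near Nr2f2 (3 of 12), a nuclear receptor of the stroma, Il13ra2 (2 of 2), a decoy receptor for interleukin 13, and Fkbp5 (1 of 2), a chaperone of steroid receptors. Nr2f2 itself had a log2FC of -0.19 (SE 0.22), and Il13ra2 was at 0 FPKM at E0.5 against 0.486 to 5.15 FPKM at E4.5. None of the 5 loci near Hand2 (log2FC -2.83, SE 0.97) or of the 2 near Gata2 (log2FC 1.01, SE 0.50) met the criterion. Near 4 of the 7 contraction-associated genes there were 6 loci, and none met the criterion, while 1 and 2 were lower without E4.5 replicates 1 and 2. Of the listed genes themselves, 10 of 18 estrogen-induced rows were higher and 4 lower at E0.5, 0 of 13 progesterone-induced rows were higher and 9 lower, and 3 of 7 contraction-associated rows were higher and 2 lower, beside 6.37% higher and 5.82% lower of all rows tested. Without E4.5 replicate 3 these counts were 10 and 5, 0 and 9, and 4 and 1. Among the progesterone-induced rows Fkbp5 then lost its call (log2FC -2.66 with all libraries and -0.88 without that one) and the merged row of Hoxa9 and Hoxa10 gained one. Fkbp5 had 0.936, 0.824 and 0.523 FPKM at E0.5 against 2.15, 0.554 and 12.2 FPKM at E4.5. Ptgfr, the receptor of prostaglandin F, was 1 of the 2 lower contraction-associated rows and had 2.01, 1.70 and 1.604 FPKM at E0.5 against 1.25, 1.28 and 160 FPKM at E4.5. Its log2FC of -4.88 was 0.47 without E4.5 replicate 3, so the call rested on that library. The count of 2 lower rows was likewise 1 without each E0.5 library.

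The 6 loci of these lists with the smallest p were all near estrogen-induced genes of the epithelium. Of these loci, MSTRG.62014 and MSTRG.27554 carry the names of their nearest genes, Ltf and C3. MSTRG.62014 (3898 bases, plus strand of chromosome 9, from 111042916 to 111046813) starts 0.149 kb past Ltf, the iron-binding secretory protein lactotransferrin, with 17.4, 11.2 and 13.9 FPKM at E0.5 against 0.0545, 0.186 and 1.07 FPKM at E4.5. Its log2FC was 5.06 (SE 1.04, adjusted p = 0.0758), and without E4.5 replicate 3 it was 6.85 (adjusted p = 0.00196). Ltf had 347 to 537 FPKM at E0.5 against 2.99 to 20.02 FPKM at E4.5, so that both were highest within E4.5 in replicate 3. MSTRG.27554 (1973 bases, chromosome 17, from 57201300 to 57203272) starts 0.698 kb past C3, a complement protein, and had 425, 395 and 499 counts at E0.5 against 15, 55 and 19 at E4.5. Its log2FC of 3.91 (SE 0.56, adjusted p = 0.0347) stood beside 4.01 (SE 0.23) for C3. MSTRG.33137 (222 bases, chromosome 2, from 32391413 to 32391634), 3.16 kb upstream of Lcn2, an iron-siderophore carrier, had 35, 49 and 19 counts at E0.5 and none at E4.5, at least 36.0-fold higher at E0.5 against the floor of 3 counts (23.8-fold without E4.5 replicate 1), with an adjusted p of 0.0862.

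On chromosome 3, 3 loci on the minus strand formed a row 1.74 to 5.45 kb upstream of the Sprr2a genes, which encode small proline-rich proteins of the epithelial surface. MSTRG.38593 (from 92209117 to 92210346) had 24, 117 and 202 counts at E0.5 and none at E4.5. MSTRG.38594 (from 92211069 to 92212006) had 68, 137 and 236 counts at E0.5 against 0, 8 and 0 at E4.5, and MSTRG.38595 (from 92212092 to 92214063) had 7, 175 and 286 at E0.5 and none at E4.5. In all 3 loci E0.5 replicate 1 was the lowest of its group and above every E4.5 library, and none passed the adjusted p (0.0705, 0.104 and 0.121). The row of Sprr2a1, Sprr2a2 and Sprr2a3 had 10.5, 19.4 and 15.01 FPKM at E0.5 against 0.0110 FPKM or less at E4.5. These genes are near-identical copies, so the division of reads among them and their surroundings is uncertain.

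Across all loci, the fold change of an intergenic locus went with that of its nearest coding gene, and more so at short distance. Over 9813 pairs in which both were tested, Spearman's correlation across loci was 0.344 and Pearson's 0.404. For the 1831 pairs within 1 kb the values were 0.462 and 0.615, and for the 1192 pairs beyond 100 kb they were 0.283 and 0.185. Loci that share a gene or a library are not independent, so these values are given as a description. Some loci carry the name of their nearest gene, and the correlations were not computed without them. Within 1 kb, 70 of 161 loci higher at E0.5 lay by a gene that met the criterion as higher and 4 by a gene that met it as lower, whereas 8.08% and 5.35% of all the genes in those pairs met it. Of 53 loci lower at E0.5, 28 lay by a lower gene and 0 by a higher one. Beyond 100 kb, 20 of 116 higher loci had a higher gene and 4 a lower one, and 20 of 91 lower loci had a lower gene and 8 a higher one, where 8.31% of the genes in those pairs met the criterion as higher and 9.82% as lower. Without E4.5 replicate 3 the Spearman's correlation over all pairs was 0.304.

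**Figure D4:**
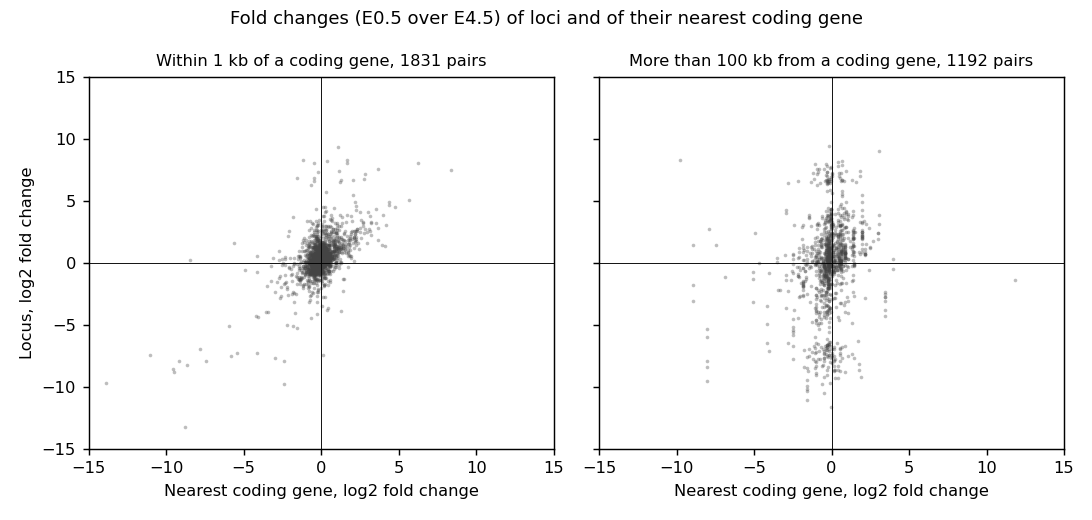
Log2 fold change (E0.5 over E4.5) of each tested intergenic locus against that of its nearest protein-coding gene, for the 1831 pairs within 1 kb and the 1192 pairs more than 100 kb apart, 1 point per pair. Pairs within 1 kb extend along the diagonal (Spearman's correlation 0.462), and pairs beyond 100 kb spread mainly along the vertical axis (0.283).

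In some stretches many neighbouring loci met the criterion. There were 96 coding rows that were the nearest gene of at least 10 tested loci, with 1494 loci between them, and near 12 of these at least 50% of the loci met the criterion in 1 direction, 6 towards E0.5 and 6 towards E4.5. These neighbourhoods, and the loci named from them, were chosen after their values were seen, and they are given as a description. The median spacing between loci of a neighbourhood was 1.37 to 23.1 kb, and whether several are pieces of 1 transcript was not tested. With loci at 0 on 1 of the days set at their bound, the medians given below for Triml1, Gdi2 and Myc were the same. So were those near Rgma, Cd93 and Thbd, Atp1b3, Zfp516 and Cdh5. The median log2FC shrank near Npvf (-6.98 to -4.64), Pkdcc (-5.30 to -4.64), Tnp1 (4.01 to 3.72) and Nkain3 (-4.19 to -4.00).

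Of these 12 neighbourhoods, that with most loci was a stretch of 256 kb on chromosome 8, from 42696406 to 42952722. Its nearest coding gene is Triml1, a tripartite motif protein, 177 to 433 kb away. The stretch held 46 tested loci with a median spacing of 1.37 kb, 45 of them without strand, and none overlaps a RefSeq gene. All 46 had a positive log2FC, with a median of 3.42, and 36 met the criterion as higher. Summed over the loci there were 146, 91.3 and 98.6 CPM at E0.5 against 8.12, 5.54 and 21.4 at E4.5. The most counted of them, MSTRG.56779 (7133 bases, from 42922147 to 42929279), had 1264, 701 and 999 counts at E0.5 against 65, 59 and 195 at E4.5, a log2FC of 3.23 (SE 0.53, adjusted p = 0.0477). Triml1 itself was at 0.0158 FPKM or less in every library. Without E4.5 replicate 3, 43 of the 46 met the criterion, and the lowest count without a single library was 23.

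The neighbourhood upstream of Gdi2, a regulator of Rab GTPases, had the highest counts of the 6 neighbourhoods higher at E0.5. It lies on chromosome 13 from 3002497 to 3431241, 107 to 535 kb from the gene, with 20 of its 23 loci higher at E0.5 and a median log2FC of 3.64. The sums were 544, 733 and 316 CPM at E0.5 against 79.5, 64.6 and 20.6 at E4.5. A single locus of 18616 bases, MSTRG.16095 (minus strand, from 3374491 to 3393106), held 41.9% of these counts, with 13099, 19354 and 10154 counts at E0.5 against 2486, 2169 and 592 at E4.5 (log2FC 3.07, SE 0.60, adjusted p = 0.0683). Gdi2 had 11.9 to 12.7 FPKM at E0.5 against 11.0 to 15.4 FPKM at E4.5, which overlap (log2FC -0.03, SE 0.17).

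Near Rgma, a membrane guidance molecule of bone morphogenetic protein signalling, the gene and the loci were both higher at E0.5. On chromosome 7, 17 of 31 loci met the criterion as higher and none as lower, with sums of 39.0, 50.999 and 28.5 CPM at E0.5 against 5.39, 5.64 and 11.5 at E4.5. Of the 31 loci, 10 overlap the noncoding gene A730056A06Rik. Rgma had 16.6, 17.5 and 17.4 FPKM at E0.5 against 5.62, 5.08 and 2.46 FPKM at E4.5 (log2FC 1.97, SE 0.34, adjusted p = 0.0529). The other neighbourhoods higher at E0.5 were near Atp1b3, a subunit of the sodium pump (9 of 13 loci), Cd93 and Thbd, surface proteins of endothelium (10 of 19), and Tnp1, a sperm chromatin protein that was itself at 0.850 FPKM or less (5 of 10). The row that merges Cd93 and Thbd and the gene Atp1b3 did not pass the adjusted p (0.591 and 0.760).

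Of the 6 neighbourhoods lower at E0.5, that of Myc, a growth-promoting transcription factor, had the highest counts. Of its 16 loci on chromosome 15, all downstream of the gene at 51.8 to 775 kb, 12 overlap Pvt1, a lncRNA gene next to Myc. The loci had 172, 170 and 159 CPM in all at E0.5 against 565, 789 and 207 at E4.5. The groups did not overlap, and 12 of 16 loci met the criterion as lower at E0.5 (median log2FC -1.68), 13 without E4.5 replicate 3. All 12 lay within 272 kb of Myc, 11 of them overlap Pvt1, and the 2 loci more than 500 kb away did not meet the criterion. Myc had the same order, with 2.89, 2.63 and 3.37 FPKM at E0.5 against 14.1, 14.2 and 3.46 FPKM at E4.5 (log2FC -1.84, SE 0.53, adjusted p = 0.152). MSTRG.22464 (25344 bases, plus strand, from 62052859 to 62078202) was the most counted, with 2687, 2491 and 3040 counts at E0.5 against 9298, 13035 and 3475 at E4.5.

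Upstream of Pkdcc, a secreted tyrosine kinase of skeletal development, 7 of 10 loci on chromosome 17 were lower at E0.5, and 6 of the 10 overlap the noncoding gene Gm19689. Their sums were 2.55, 2.72 and 2.89 CPM at E0.5 against 21.0, 17.5 and 83.8 at E4.5, and Pkdcc had 2.14 to 3.27 FPKM and 9.61 to 22.7 FPKM (log2FC -2.47, SE 0.42, adjusted p = 0.0521). Upstream of Cdh5, the cadherin of endothelial cell junctions, 8 of 10 loci were lower, 6 of the 10 overlap the noncoding gene Gm32728, and the sums were 1.23, 2.69 and 1.75 CPM at E0.5 against 21.5, 27.8 and 4.26 at E4.5. Cdh5 had 6.03 to 7.45 FPKM at E0.5 against 11.5 to 26.3 FPKM at E4.5 (log2FC -1.48, SE 0.34, adjusted p = 0.0922). The loci and the gene thus had the same order in both places, and the link between them was not tested.

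The remaining neighbourhoods lower at E0.5 lay near Zfp516, Nkain3 and Npvf. Near Zfp516, a zinc finger protein, 9 of 13 loci were lower, near Nkain3, a sodium pump partner, 7 of 12, and near Npvf, a neuropeptide precursor that was at 0.0514 FPKM or less, 6 of 10. In the Npvf neighbourhood, E4.5 replicate 3 had 0.578 CPM in all, within the E0.5 range of 0.370 to 0.860, whereas E4.5 replicates 1 and 2 had 11.1 and 17.8.

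**Figure D5:**
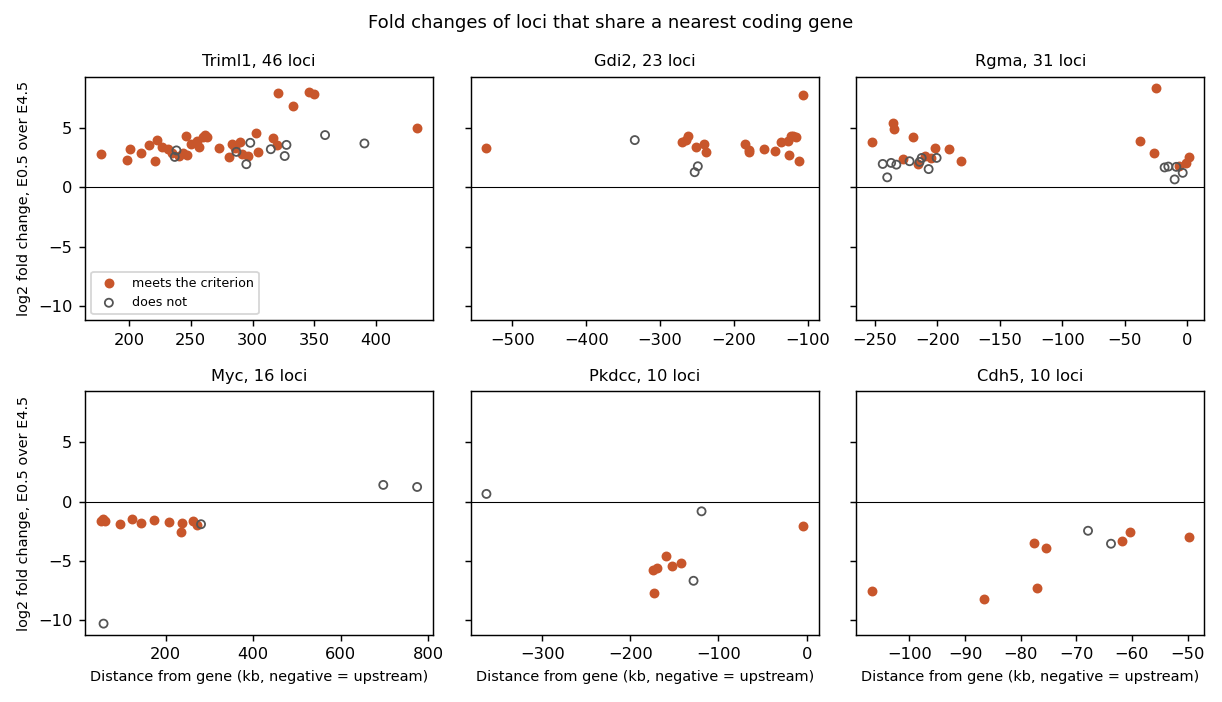
Log2 fold change (E0.5 over E4.5) of the tested intergenic loci nearest to Triml1, Gdi2, Rgma, Myc, Pkdcc and Cdh5 against the distance from the gene in kb (negative values upstream), 1 point per locus, filled where the study's criterion was met. Filled points are 36 of 46, 20 of 23 and 17 of 31 above 0 in the upper panels and 12 of 16, 7 of 10 and 8 of 10 below 0 in the lower ones.

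A different set of loci rested on a single library. In E4.5 replicate 3, 449 tested loci had at least 10 counts and at least 10 times the CPM of any other library, against 23 to 179 loci in each of the other libraries, and they held 13.8% of that library's intergenic counts. In 254 of the 449 (56.6%) the nearest coding gene was also highest in that library, beside 33.0% over all tested loci, and in 130 (29.0%) that gene was at least 10 times higher as well, beside 2.32%. Loci of this kind in E0.5 replicates 2 and 3 also went with their gene, in 27.5% beside 11.4% and in 25.5% beside 15%. The share was closer to that of all tested loci in E0.5 replicate 1, at 12.3% beside 9.6%. The same held for E4.5 replicates 1 and 2, at 13% beside 11.4% and 12.5% beside 12%. The most counted of the 449 loci was MSTRG.18069 (9358 bases, plus strand of chromosome 13, from 87663490 to 87672847). Its nearest coding gene was Edil3 at 1149 kb. The locus had 9, 0 and 9 counts at E0.5 against 9, 0 and 26698 at E4.5. MSTRG.18070 on the other strand, from 87793705 to 87822606, had 0, 4 and 0 counts and then 9, 0 and 7872. The 21 tested loci downstream of Kcna4, a potassium channel, summed to 0.169 to 0.758 CPM at E0.5 and to 0.0583, 0 and 177 in the E4.5 libraries, and Kcna4 had 2.95 FPKM in that library and 0.0126 FPKM or less in the others. None of the 21 met the criterion, but 51 of the 449 loci did (11.4%), beside 13.9% of all intergenic loci and 12.2% of all rows tested. All 51 were lower at E0.5, a direction fixed by how these loci were chosen, and they were 10.2% of the 499 lower intergenic loci. Without E4.5 replicate 3, 2 of the 51 met it. The ovary sum of 997 FPKM belongs to the same library, and its part in these loci was not tested. These loci were also chosen after their values were seen.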

How the data were processed

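RNA from the whole uterus of each mouse was sequenced, and the deposited table of the implantation stage gives a read count and an FPKM value per assembled gene and library. Per the labels, libraries were poly(A) selected, whereas the study's methods describe removal of ribosomal RNA. The authors assembled transcripts with StringTie and estimated FPKM (reads scaled by transcript length and library depth) from them, and the submitters' processing notes list Bowtie 0.12.2, HISAT2 2.0 and StringTie 1.3.0. How the deposited counts were assigned to overlapping loci, and with which strand setting, is not given in the sources used here. Deposited FPKM of 0.0001 went with a count of 0 and were set to 0. Coordinates are those of the table, on GRCm38, which was checked against the positions of RefSeq coding genes of the same name. No genome sequence of that build was used, so no sequence is shown.

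Counts were compared with edgeR 4.0.16 (R 4.3.3, quasi-likelihood test, TMM factors) over all rows that averaged 0.1 FPKM or more, with Benjamini-Hochberg adjustment over these rows. Fold changes are E0.5 over E4.5 on the log2 scale. Nothing in the labels pairs mice of different days by origin. Single values per library were compared with an exact permutation test (SciPy 1.17.1). DESeq2 1.42.0 and limma 3.58.1 were alternatives, and the fits were tested on simulated data. Tables were handled with Python 3.11.15, pandas 2.3.3 and NumPy 2.4.6.

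Loci were named by size of change (8 per direction, with at least 1 FPKM, an adjusted p under 0.05 and groups that do not overlap), by level (8, with at least 10 counts on average), by counts (5), by span (3) and by p near hormone-induced genes (6). Loci named outside these rules were chosen after their values were seen. The loci and the gene lists were chosen with earlier results of these data known. A planned match of the loci to the E15.5 and E18.5 table was not made, because that table comes from a separate assembly and its loci could not be matched by position here. All value columns of the implantation table were used, and 0 were set aside.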

Additional observations from a re-analysis of the deposited data

How the results depend on the processing

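The count of 1558 loci by the study's criterion was 685 when a mean of at least 1 FPKM was required, which leaves 5072 loci, and 731 with limma on log2(FPKM + 1). It was 1036 among loci at least 5 kb and 463 among those at least 50 kb from a coding gene, where fewer loci are counted. Leaving out single libraries gave 1202 to 1722. The 94 loci past the adjusted p were 965 with DESeq2, 146 with limma on log2(FPKM + 0.1), 62 at 5 kb and 25 at 50 kb, and 0 to 433 without single libraries. With the replicate number as a block they were 0 (edgeR, 1344 loci at an unadjusted p under 0.05), and the criterion count was 1269. Replicate numbers did not pair the mice, since same-numbered libraries deviated with correlations of -0.0852, 0.0273 and -0.0804 and 0 of 6 libraries correlated best with its own number. Of the 16 loci named by change, 10 passed with limma on log2(FPKM + 1), 0 with the block and 0 to 16 without single libraries. The other causes of these differences were not tested.

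The difference in share of counts was 0.537 to 0.730 points without single libraries (exact permutation test, p = 0.2, the smallest possible at 3 against 2 libraries). The Spearman's correlation with the nearest gene was 0.327 for genes on the same strand and 0.304 to 0.343 without single libraries. Of 463 refits of single named loci, 328 kept their side of the threshold and direction, 8 kept their side but changed sign (MSTRG.3491 and MSTRG.50453, neither called), 104 lost the call, 23 gained it and 0 reversed a called direction. The median change of the loci lay between 0.19 and 0.54 in all settings. Comparisons limited to loci off RefSeq coding genes or free of overlap, the correlations and the listed genes without single libraries were added after seeing the data. The planned E15.5 against E18.5 comparison and its alternatives were not run. Depth limits single loci, since 8.93% of tested loci averaged under 10 counts.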
